A study of Mus musculus with 8 samples.

Results

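The matrix metalloproteinases, the ADAM and ADAMTS proteases, the ADAMTS-like proteins and the tissue inhibitors of metalloproteinases (TIMPs) were followed in RNA sequencing. The cells were mouse dermal fibroblasts with and without Cre-mediated deletion of *Tgfb1*. The genes were chosen by name: all symbols of the deposited table that begin with Mmp, Adam, Adamts, Adamtsl or Timp followed by a digit. The rule itself used no measured value, but earlier results of these data were known. The authors had also left genes with few reads out of the table. The rule gave 51 of the 15111 genes of the table, of which 17 were Mmp, 12 Adam, 14 Adamts, 5 Adamtsl and 3 Timp genes. The GENCODE M21 annotation holds 84 genes with such names, and those outside the table were not analysed here. The fibroblasts were primary cells from the skin of adult mice that had been fed tamoxifen, and they were cultured for 72 h on fibronectin in serum replacement medium. The 4 control libraries came from *Tgfb1fl/fl* mice without Cre. The 4 TGFβ1FKO libraries came from *Tgfb1fl/fl:Col1a2-CreERT* mice, in which a tamoxifen-inducible Cre under the *Col1a2* promoter deletes the floxed alleles in collagen-producing cells. Both groups thus carried floxed alleles and received tamoxifen. The labels number the libraries but do not say that each came from a separate mouse, so the p-values measure only the spread between these samples, which may be technical.

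The proteases of these families carry a zinc ion in their catalytic site and cut collagens, proteoglycans, adhesion molecules and membrane-bound growth factors. Most are made as inactive precursors, and TIMPs bind the active enzymes and block them. In skin, fibroblasts are a main source of both the enzymes and their inhibitors, and collagen turnover during repair and fibrosis depends on their balance. TGFβ1 is released from fibroblasts in a latent form, and several metalloproteinases are known to release or cut proteins that hold it in the matrix. The question was which members cultured fibroblasts expressed, and whether their RNA differed when *Tgfb1* had been targeted in the cells.

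6 of the members are the measured part of a larger cluster of Mmp genes on chromosome 9 and follow each other in the order *Mmp13*, *Mmp12*, *Mmp3*, *Mmp10*, *Mmp8* and *Mmp27*, all on the + strand. The other annotated Mmp genes of the cluster, of which some lie between these, were not analysed here. The 150 bases before an annotated start of 4 of them are shown because *Mmp13* and *Mmp10* were among the members with the lowest log2 fold changes. The same short motif also lies in a start region of each of *Mmp3*, *Mmp12*, *Mmp10* and *Mmp13*. The stretches are from RefSeq on GRCm38.p6, read 5′ to 3′ on the + strand, and are chr9:7272364-7272513 for *Mmp13*, chr9:7347224-7347373 for *Mmp12* (the second of its annotated starts), chr9:7445672-7445821 for *Mmp3* and chr9:7502192-7502341 for *Mmp10*. Capitals mark matches to TGANTCA, the core of the binding motif of AP-1 (dimers of proteins of the FOS and JUN families), and to TATAAA, the letters of the TATA box.
Mmp13: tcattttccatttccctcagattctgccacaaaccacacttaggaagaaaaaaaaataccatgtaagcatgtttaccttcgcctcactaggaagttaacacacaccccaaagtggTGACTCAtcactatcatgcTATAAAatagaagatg
Mmp12: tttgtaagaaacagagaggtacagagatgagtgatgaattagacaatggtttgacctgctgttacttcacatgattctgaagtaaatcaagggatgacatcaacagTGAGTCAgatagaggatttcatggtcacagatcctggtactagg
Mmp3: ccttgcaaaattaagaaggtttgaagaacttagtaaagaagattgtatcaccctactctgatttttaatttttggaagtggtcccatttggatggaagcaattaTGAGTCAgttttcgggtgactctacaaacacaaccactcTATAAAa
Mmp10: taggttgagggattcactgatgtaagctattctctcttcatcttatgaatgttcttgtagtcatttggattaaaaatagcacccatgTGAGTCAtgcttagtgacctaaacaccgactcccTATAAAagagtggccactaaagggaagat
The AP-1 match begins 35 bases before the annotated start in *Mmp13*, 44 bases in *Mmp12*, 46 bases in *Mmp3* and 63 bases in *Mmp10*. TATAAA begins 16 bases before the start in *Mmp13*, 7 bases in *Mmp3* and 29 bases in *Mmp10*. The 150 bases before the first annotated start of *Mmp12*, chr9:7344247-7344396, hold neither match. Over the 250 bases before each start and on both strands, TGANTCA was found in 4 of the 7 windows of the chromosome 9 Mmp genes. It was found in 5 of the 37 windows of the 33 members that have one (13.5%), the fifth being that of *Adam19*, and in 6.75% of the 32851 windows of all genes. TATAAA was found in 3 of the 7 windows of these Mmp genes and in 12.4% of all windows. The palindromic SMAD-binding element, which SMAD3 and SMAD4 can bind, was in none of the members' windows and in 0.167% of all windows. At that rarity its absence from 37 windows says nothing about the members. These matches describe the letters only and do not show that a factor binds there or where transcription starts in these cells.

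The targeted gene was checked first. The normalised count of *Tgfb1* was 1298 to 1483 in control and 228 to 326 in TGFβ1FKO libraries (log2 fold change -2.31, adjusted p = 1.53e-07, limma). Its RNA was thus lower in the TGFβ1FKO libraries but still present in each of them. Recovered reads per library were 16988998 to 21806579 in control and 17445002 to 23071528 in TGFβ1FKO libraries, so 1 read was worth close to 1 normalised count in each. All 9 fibroblast markers listed for the check (*Col1a1*, *Col1a2*, *Col3a1*, *Vim*, *Dcn*, *Thy1*, *Pdgfra*, *Lum* and *Fap*) were in the table, with *Col1a1* at 599011 to 725180.0. Of the markers of other cells, 8 of 9 Schwann cell genes were in the table, and all 8 were lower in TGFβ1FKO at an unadjusted p under 0.05, with *Sox10* and *Foxd3* among those past both thresholds. Their summed normalised counts were 1511 to 2342 in control and 745 to 1628 in TGFβ1FKO libraries. Most of each sum was *Ngfr*, at 1251 to 1764 in control and 622 to 1512 in TGFβ1FKO libraries, so the sums mainly follow that gene. The log2 fold changes of these genes ran from -3.20 for *Foxd3* to -0.65 for *Ngfr*. *Sox10* was 72.1 to 207 in control and 7.25 to 21.1 in TGFβ1FKO libraries. All 8 endothelial genes had negative log2 fold changes, 2 of them at an unadjusted p under 0.05, with sums of 529 to 819 in control and 512 to 543 in TGFβ1FKO libraries. None of the 7 neutrophil genes and 4 of 9 macrophage genes were in the table, and the macrophage genes summed to 561 to 645 in control and 372 to 615 in TGFβ1FKO libraries. Of 8 keratinocyte genes 3 were in the table, with sums of 91.2 to 119.5 in control and 91.3 to 124 in TGFβ1FKO libraries. The keratinocyte gene *Trp63* was higher at an unadjusted p under 0.05 (19.8 to 29.6 in control, 29.1 to 43.5 in TGFβ1FKO). Of 7 pericyte and smooth muscle genes 6 were in the table. *Myh11* was higher without overlap of the groups (419 to 498 in control, 556 to 916 in TGFβ1FKO, adjusted p = 0.0649, limma), and *Cspg4* was lower at an unadjusted p under 0.05. The sums were 19114 to 22354 in control and 19419 to 21015 in TGFβ1FKO libraries. Most of each sum was *Pdgfrb*, at 18146 to 21362 in control and 18396 to 19774 in TGFβ1FKO libraries, so the sums say little about the rest of the list. The part of these cells in the values below was not tested. In such bulk samples, fewer cells of a type and less RNA per cell cannot be told apart.

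No member of the 5 families passed the thresholds for a change between the groups. Values are normalised counts with the authors' added 0.5 subtracted, and log2 fold changes are TGFβ1FKO minus control on the log2(value + 1) scale, on which differences of genes with few reads come out too small. Members were called in limma's test if the Benjamini-Hochberg adjusted p was under 0.05 and the log2 fold change exceeded 0.6 in size. By this rule 0 of 51 members were called, against 13 of all 15111 genes (0.086%). At an unadjusted p under 0.05, 8 members were lower (15.7%, against 3.87% of all genes), namely *Adamts17*, *Adamtsl3*, *Mmp13*, *Mmp15*, *Adamts15*, *Adamts6*, *Mmp11* and *Mmp2*. *Adamts4* was the one member that was higher at that level (1.96%, against 3.59% of all genes), so that 9 of 51 (17.6%) stood below it in either direction, against 7.46% of all genes. edgeR's quasi-likelihood test and the Wald test of DESeq2 against no change also gave 9 members at an unadjusted p under 0.05 and called 0 at both thresholds. The groups did not overlap in 2 members (3.92%), *Adamts6* and *Adamts17*, both lower in TGFβ1FKO. Over all genes they did not overlap in 3.79%, and in 2.1% with TGFβ1FKO lower. The share without overlap in either direction was thus close to that of the whole table.

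For 34 of 51 members (66.7%) the 95% interval of the log2 fold change lay within 0.6 on either side, against 72.2% of all genes. All 22 members with a mean normalised count of 1000 or more were among these 34, and their log2 fold changes ran from -0.31 to 0.20. Of the 20 members with a mean from 50 to under 1000, 12 were. None of the 9 members with a mean under 50 were, and the median width of their interval was 1.85, against 0.354 for the most abundant class. For those 9 a change of more than 0.6 was neither shown nor bounded by these libraries. The control CV ran from 23.5 to 83.9% among these 9, from 3.15 to 66.7% in the middle class and from 5.58 to 19.5% in the most abundant class. The median log2 fold change was -0.026 over the 51 members and 0.0031 over all genes, and 33 members had a negative log2 fold change and 18 a positive one.

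**Figure D1:**
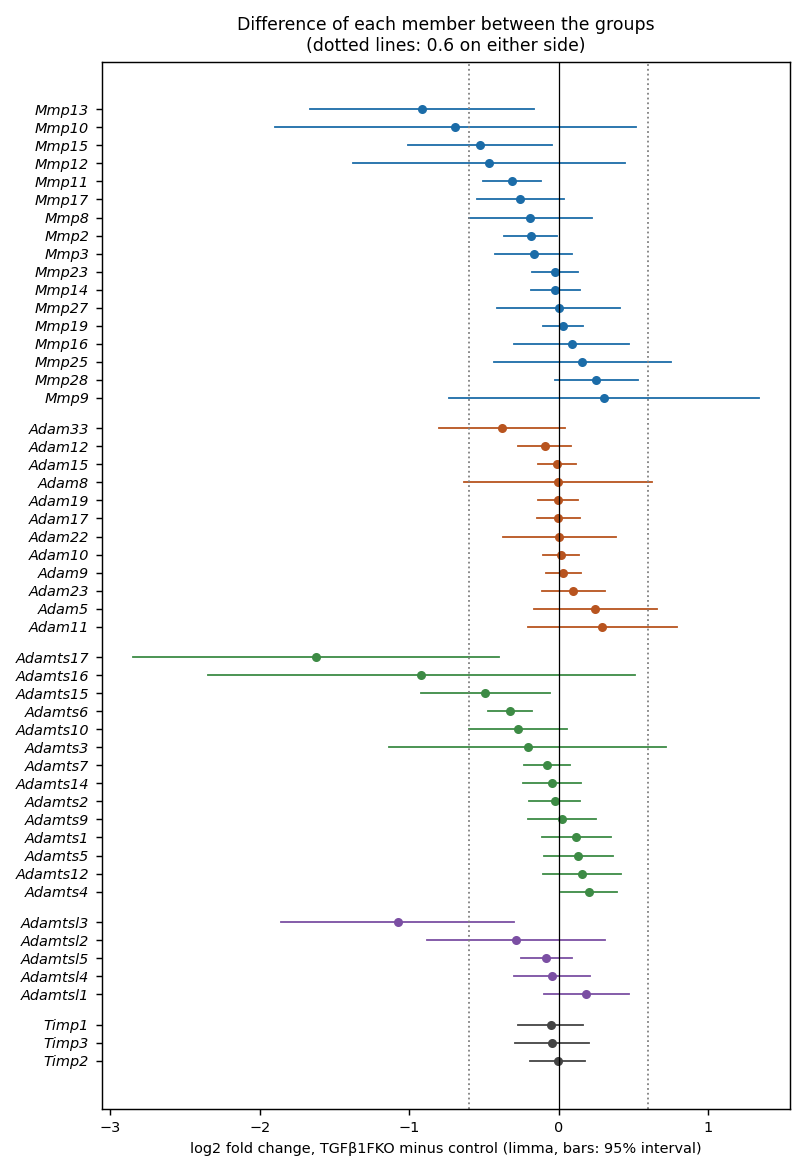
Log2 fold change of the 51 members (TGFβ1FKO minus control, limma on log2(normalised count + 1), n = 4 per group), grouped by family, with 95% intervals as horizontal bars and dotted lines at 0.6 on either side. The intervals of 34 members lie between the dotted lines, and those of Adamts17, Adamtsl3, Mmp13, Mmp15 and Adamts15 lie below 0 and reach past the lower line.

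The inhibitors *Timp2*, *Timp1* and *Timp3*, the proteases *Mmp2* and *Mmp14* and the secreted *Adamts1* and *Adamts2* were among the 10 members with the highest levels, whichever gene length was used. To compare genes, normalised counts were divided by the length of all annotated exons of the gene in kb. In control fibroblasts *Timp2* was highest, at 10289.7 ± 1376 per kb (SD, n = 4), and *Mmp2* was second at 9080.2 ± 1062, below *Timp2* in each of the 4 control libraries. *Mmp14* followed at 6239 ± 516, *Timp1* at 4986 ± 651 and *Adamts1* at 4581 ± 467 per kb. Each of these stood above the next in all 4 control libraries, except that *Timp1* was above *Adamts1* in 3 of them. *Adamts2* stood at 2544 ± 317, *Timp3* at 1838 ± 289, *Adam9* at 1785 ± 99.6, *Adamts5* at 1573 ± 207 and *Mmp23* at 1193 ± 109.6 per kb. *Timp3* was above *Adam9* in 2 of the 4 control libraries, so their order was not determined. With the coding length in place of the exon length the same 10 genes were highest, but in another order. *Timp2* stayed first at 60740.1 per coding kb, *Timp3* moved from rank 7 to rank 2 at 23645, *Mmp14* stood at 21298 and *Mmp2* moved from rank 2 to rank 4 at 15412. At the lower end, *Mmp9* stood at 1.86 ± 1.35, *Adamts3* at 1.81 ± 0.883 and *Adamts17* at 1.06 ± 0.417 per kb.

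**Figure D2:**
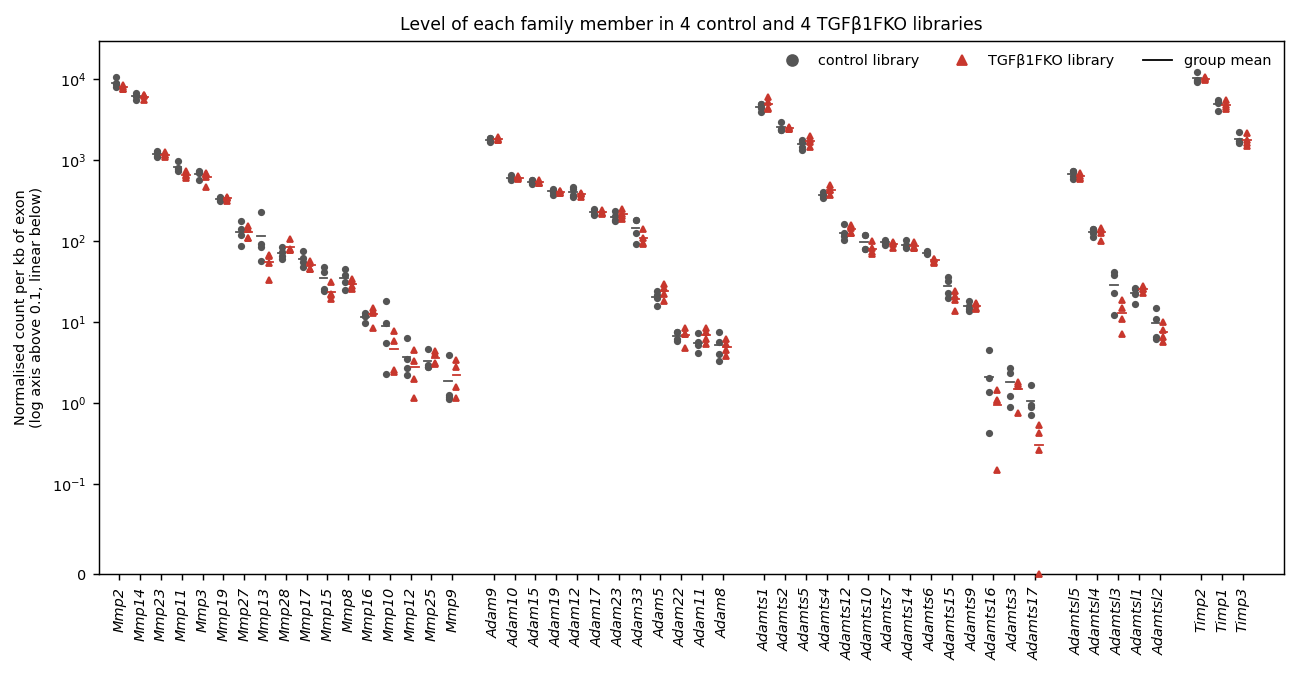
Normalised count per kb of exon of each member in the 4 control libraries (grey circles) and the 4 TGFβ1FKO libraries (red triangles), with group means as short lines, ordered by control level within each family; the axis is logarithmic above 0.1. By this length Timp2, Mmp2 and Mmp14 are highest, and at most genes the red and grey points lie over each other.

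By exon length, a few genes made up much of each family's summed level. *Mmp14* and *Mmp2* together were 80.5 to 81.8% of the summed Mmp level per kb in control and 80.7 to 82.0% in TGFβ1FKO libraries. *Adamts1*, *Adamts2* and *Adamts5* made up 90.005 to 90.9% of the Adamts sum in control and 90.4 to 91.1% in TGFβ1FKO libraries. *Adam9* was 38.4 to 43.2% of the Adam sum in control and 41.0 to 43.3% in TGFβ1FKO libraries, and *Adamtsl5* was 73.0 to 80.4% of the Adamtsl sum in control and 75.4 to 83.3% in TGFβ1FKO libraries. The sum of the Mmp genes was 17017 to 21332 in control and 15992 to 18149 in TGFβ1FKO libraries, and that of the 3 Timp genes was 16144 to 18101 in control and 16400.4 to 17654 in TGFβ1FKO libraries (normalised counts per kb). Their ratio, inhibitor to Mmp, was 0.949, 0.934, 0.916 and 0.849 in control replicates 1 to 4 and 0.914, 0.945, 1.10 and 0.935 in TGFβ1FKO replicates 1 to 4. TGFβ1FKO replicate 3 had the highest ratio and control replicate 4 the lowest, and the other 6 libraries of both groups overlapped. The ratio depends on the length used, and by coding length it was 2.04 to 2.22 in control and 2.11 to 2.52 in TGFβ1FKO libraries.

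**Figure D3:**
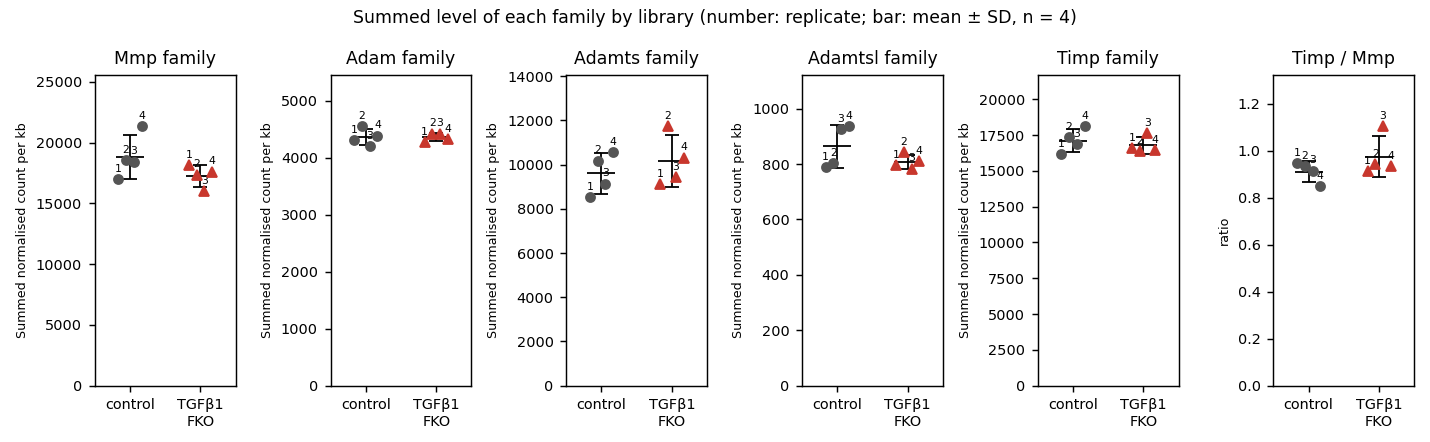
Summed normalised counts per kb of exon of each family, and the ratio of the Timp to the Mmp sum, in each of 4 control (grey circles) and 4 TGFβ1FKO (red triangles) libraries; numbers are replicates, and bars give the mean and SD. The groups overlap in all 6 panels, and the ratio is highest, at 1.10, in TGFβ1FKO replicate 3.

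*Mmp2*, or gelatinase A, degrades denatured collagen and the collagen of basement membranes. Its normalised count was 27284, 30157, 29332 and 35664 in control replicates 1 to 4 and 28950.1, 25851, 25320.4 and 27068 in TGFβ1FKO replicates 1 to 4. The groups overlapped through TGFβ1FKO replicate 1, which was above control replicate 1, and the highest value was that of control replicate 4. The mean was 30609 ± 3579.6 in control and 26797 ± 1611 in TGFβ1FKO fibroblasts (SD, n = 4 each), with a log2 fold change of -0.19, 95% interval -0.36 to -0.0093 (adjusted p = 0.657, limma). Without control replicate 4 it was -0.11. *Mmp9*, the gelatinase B known mainly from leukocytes and keratinocytes, was near the floor, with 16, 4, 4 and 4 reads in control and 12, 4, 12 and 5 reads in TGFβ1FKO libraries. The log2 fold change of *Mmp9* was 0.30, 95% interval -0.73 to 1.34, so its direction was not determined.

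*Mmp14*, the membrane-anchored protease that cuts collagen at the cell surface and activates the precursor of *Mmp2*, was 33417, 37111, 37259.5 and 40954 in control replicates 1 to 4 and 37522, 37783, 33120.0 and 37913 in TGFβ1FKO replicates 1 to 4. The groups overlapped, and the log2 fold change was -0.022, 95% interval -0.19 to 0.14. Among the other membrane-type members, *Mmp15* was 132, 227, 262 and 138 in control replicates 1 to 4 and 104, 121, 172 and 116 in TGFβ1FKO replicates 1 to 4. Its highest values were those of control replicates 2 and 3, while control replicates 1 and 4 lay among the TGFβ1FKO values, and TGFβ1FKO replicate 3 lay above them. Its log2 fold change was -0.52, 95% interval -1.01 to -0.041 (adjusted p = 0.651, limma), and it was -0.35 without control replicate 3. *Mmp17*, which is held in the membrane by a lipid anchor, had a log2 fold change of -0.26, 95% interval -0.55 to 0.035, *Mmp16* of 0.087, 95% interval -0.30 to 0.47 and *Mmp25* of 0.16, 95% interval -0.43 to 0.75.

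The collagenases cut intact fibrillar collagen, and *Mmp13* is the main one of rodents. Its normalised count was 613, 226, 152 and 246 in control replicates 1 to 4 and 182, 88.0, 176 and 143 in TGFβ1FKO replicates 1 to 4. Control replicate 1 stood far above the rest, and control replicate 3 lay below 2 of the 4 TGFβ1FKO libraries. The mean was 309 ± 206 in control and 147 ± 43.2 in TGFβ1FKO fibroblasts (SD, n = 4 each), with a log2 fold change of -0.92, 95% interval -1.67 to -0.16 (adjusted p = 0.609, limma; two-sided exact permutation p = 0.0857). Without control replicate 1 the log2 fold change was -0.52. *Mmp8*, the collagenase first described in neutrophils, was 60.2 to 109.6 in control and 62.1 to 82.1 in TGFβ1FKO libraries, with a log2 fold change of -0.19, 95% interval -0.60 to 0.22.

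The stromelysins *Mmp3* and *Mmp10* cut proteoglycans, fibronectin and the precursors of other Mmps. *Mmp3* was 1038, 1266, 1298 and 1327 in control replicates 1 to 4 and 1127, 1253, 833 and 1215 in TGFβ1FKO replicates 1 to 4, with a log2 fold change of -0.17, 95% interval -0.42 to 0.092. TGFβ1FKO replicate 3 was the lowest library and the groups overlapped. *Mmp10* was close to the detection floor and had 37, 9, 15 and 4 reads in control replicates 1 to 4 and 10, 4, 16 and 4 in TGFβ1FKO replicates 1 to 4. Control replicate 1 was highest by a wide margin, and control replicate 4 was equal to the lowest TGFβ1FKO libraries in reads. Its log2 fold change, at -0.69, 95% interval -1.90 to 0.52, became -0.25 without control replicate 1 and -1.16 without control replicate 4. Of the stretches of 50 bases in the transcripts of *Mmp10*, 8.37% also occur in those of *Mmp3*. Whether reads of either gene were assigned to the other was not tested. *Mmp11*, or stromelysin-3, is typical of stromal fibroblasts and is activated inside the cell by furin. It was 2226, 2180.2, 2030.3 and 2758 in control replicates 1 to 4 and 2069.8, 1696, 1758 and 1856 in TGFβ1FKO replicates 1 to 4, and only TGFβ1FKO replicate 1 and control replicate 3 overlapped. The mean was 2299 ± 318 in control and 1845 ± 164 in TGFβ1FKO fibroblasts (SD, n = 4 each), with a log2 fold change of -0.31, 95% interval -0.51 to -0.12 (adjusted p = 0.459, limma; two-sided exact permutation p = 0.0571). Over 5.58% of its exon length *Mmp11* overlaps *Chchd10* on the opposite strand, and the libraries did not keep the strand.

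*Mmp12*, the elastase of macrophages, had 54, 15, 18 and 26 reads in control replicates 1 to 4 and 24, 32, 10 and 13 in TGFβ1FKO replicates 1 to 4, with a log2 fold change of -0.46, 95% interval -1.37 to 0.45. Taking the 6 genes of the chromosome 9 cluster together, control replicate 1 was the highest control library for *Mmp13*, *Mmp12* and *Mmp10* and the lowest for *Mmp3*, *Mmp8* and *Mmp27*. These genes thus did not vary as a block between libraries of one group. Control replicate 4 was the highest control for *Mmp3*, *Mmp8* and *Mmp27*. *Mmp27* was 192 to 397 in control and 241 to 345 in TGFβ1FKO libraries, with a log2 fold change of 0.00018, 95% interval -0.41 to 0.41. The AP-1 factors that could be measured, 7 of 7 listed *Fos* and *Jun* genes, included none at an unadjusted p under 0.05, with log2 fold changes from -0.19 for *Fosb* to 0.26 for *Fosl1*.

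**Figure D4:**
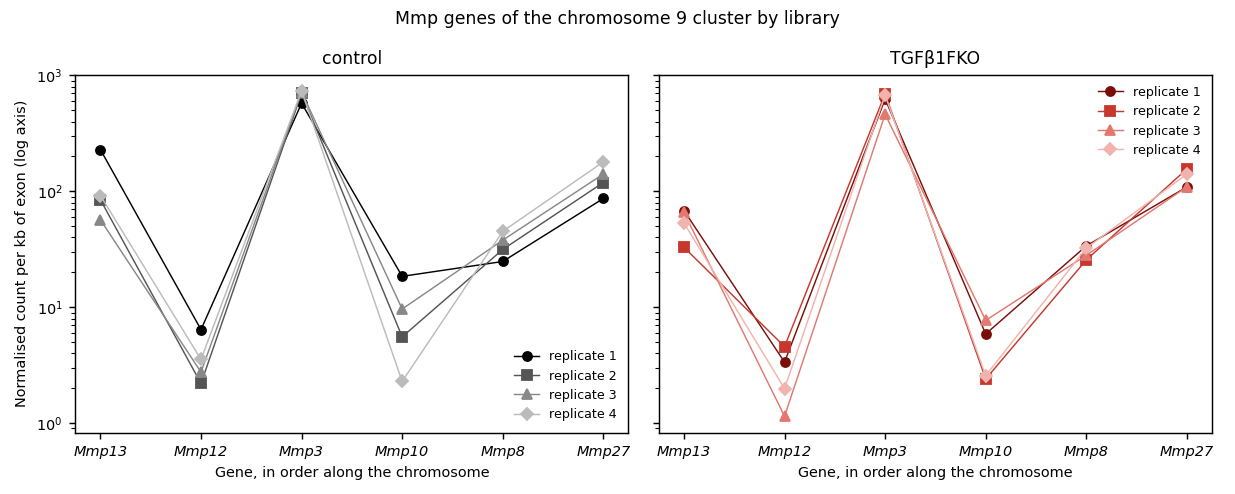
Normalised count per kb of exon of the 6 Mmp genes of the chromosome 9 cluster, in order along the chromosome, with 1 line per library for 4 control (left) and 4 TGFβ1FKO (right) libraries; the axis is logarithmic and the lines only join values of one library. Control replicate 1 (black) lies above the other controls at Mmp13, Mmp12 and Mmp10 and below them at Mmp3, Mmp8 and Mmp27.

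Of the remaining Mmp genes, *Mmp23*, a membrane protein that is shed from the cell by cleavage, was 2540.4 to 3075 in control and 2545 to 2963 in TGFβ1FKO libraries (log2 fold change -0.023, 95% interval -0.17 to 0.13). *Mmp19* had a log2 fold change of 0.028, 95% interval -0.11 to 0.16, and 22.3% of its exon length overlaps *Tmem198b* on the opposite strand. *Mmp28*, or epilysin, known from keratinocytes, was 252, 235, 289 and 333 in control replicates 1 to 4 and 299, 409, 303 and 310.2 in TGFβ1FKO replicates 1 to 4. TGFβ1FKO replicate 2 was the highest library and control replicate 4 lay above the other TGFβ1FKO libraries, so the groups overlapped at a log2 fold change of 0.25, 95% interval -0.026 to 0.53. Without TGFβ1FKO replicate 2 it was 0.15. *Mmp28* shares 12% of its exon length with a gene on the opposite strand.

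The ADAMs are membrane proteins, most of which release the outer parts of other membrane proteins. A search for the zinc-binding motif of these proteases in the translated GENCODE transcripts found it in all 17 Mmp, all 14 Adamts and 8 of 12 Adam members, and in no Adamtsl or Timp member. The Adam members without it were *Adam5*, *Adam11*, *Adam22* and *Adam23*. None of the 12 had an unadjusted p under 0.05. *Adam9*, the highest per kb, was 7665, 7729.7, 7047 and 6939 in control replicates 1 to 4 and 7328, 7531, 7888 and 7294 in TGFβ1FKO replicates 1 to 4, with a log2 fold change of 0.033, 95% interval -0.085 to 0.15. For *Adam10*, which cuts Notch receptors and cadherins, the log2 fold change was 0.017, 95% interval -0.11 to 0.14, and for *Adam17*, which releases tumour necrosis factor and ligands of the epidermal growth factor receptor, it was -0.00076, 95% interval -0.14 to 0.14. These intervals exclude a change of 0.6 in either direction. *Adam12* (-0.093), *Adam15* (-0.0086) and *Adam19* (-0.0035), which are expressed in mesenchymal cells, also had intervals within 0.6. Over 20.6% of its exon length *Adam15* overlaps an antisense transcript.

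*Adam33*, known as a gene of fibroblasts and smooth muscle, had the lowest log2 fold change of this family. It was 682, 505, 984 and 977 in control replicates 1 to 4 and 495, 764, 516 and 596 in TGFβ1FKO replicates 1 to 4. Control replicates 3 and 4 were the highest libraries, control replicates 1 and 2 lay among the TGFβ1FKO libraries, and the log2 fold change was -0.38, 95% interval -0.80 to 0.046. *Adam23*, a protein without protease activity that is best known from neurons, was 3163 to 4234 in control and 3403 to 4469 in TGFβ1FKO libraries. The highest log2 fold changes of the family were those of *Adam11* (0.29, 95% interval -0.21 to 0.79) and *Adam5* (0.25, 95% interval -0.17 to 0.66), and in both the groups overlapped. With single libraries left out they ran from 0.16 (without control replicate 2; 0.19 without TGFβ1FKO replicate 4) to 0.43 for *Adam11* and from 0.13 (without control replicate 4; 0.14 without TGFβ1FKO replicate 4) to 0.37 (without TGFβ1FKO replicate 3) for *Adam5*.

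The ADAMTSs are secreted, and *Adamts1*, *Adamts4*, *Adamts5*, *Adamts9* and *Adamts15* cut proteoglycans such as versican and aggrecan. *Adamts1* was 21144, 26517, 23502 and 25998 in control replicates 1 to 4 and 23384, 32284, 22934 and 27516 in TGFβ1FKO replicates 1 to 4. *Adamts5* was 14382, 19397, 15983 and 18152 in control replicates 1 to 4 and 15652, 21658, 18037 and 19169 in TGFβ1FKO replicates 1 to 4. In both genes TGFβ1FKO replicate 2 was the highest library, the groups overlapped, and the log2 fold changes were 0.12, 95% interval -0.11 to 0.35 for *Adamts1* and 0.13, 95% interval -0.095 to 0.36 for *Adamts5*. Without TGFβ1FKO replicate 2 they were 0.020 and 0.058, and without control replicate 1 they were 0.054 and 0.057. The highest values with 1 library left out were 0.18 for *Adamts1* (without TGFβ1FKO replicate 3) and 0.21 for *Adamts5* (without TGFβ1FKO replicate 1; 0.20 without control replicate 2). *Adamts4* was 1753, 1820.1, 1628 and 1982 in control replicates 1 to 4 and 1773, 2392, 2051 and 2088 in TGFβ1FKO replicates 1 to 4. All TGFβ1FKO values but that of replicate 1 lay above every control value. The mean was 1796 ± 148 in control and 2076 ± 253 in TGFβ1FKO fibroblasts (SD, n = 4 each), with a log2 fold change of 0.20, 95% interval 0.019 to 0.39 (adjusted p = 0.647, limma; two-sided exact permutation p = 0.0857). Without TGFβ1FKO replicate 2 it was 0.13, with an unadjusted limma p of 0.116. *Adamts15* went the other way on average, at 206, 334, 237 and 375 in control replicates 1 to 4 and 252, 144, 197 and 218 in TGFβ1FKO replicates 1 to 4. Control replicates 2 and 4 were above all TGFβ1FKO libraries, whereas the other 2 controls were not, and the log2 fold change was -0.49, 95% interval -0.92 to -0.058 (adjusted p = 0.641, limma). Without TGFβ1FKO replicate 2 it was -0.34. *Adamts9* had a log2 fold change of 0.024, 95% interval -0.21 to 0.25.

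*Adamts2*, *Adamts3* and *Adamts14* remove the amino-terminal propeptide of fibrillar procollagens. *Adamts2* was 22011, 22948, 21912 and 28142 in control replicates 1 to 4 and 22519, 24109, 23568 and 22638 in TGFβ1FKO replicates 1 to 4. Control replicate 4 was the highest library and the remaining values of both groups overlapped, with a log2 fold change of -0.026, 95% interval -0.20 to 0.14. *Adamts14* was 426 to 538 in control and 429.8 to 507 in TGFβ1FKO libraries (log2 fold change -0.044, 95% interval -0.24 to 0.15). *Adamts3* had at most 15 reads in any library, and its log2 fold change of -0.21 had an interval from -1.14 to 0.72. *Adamts12* and *Adamts7*, which cut cartilage oligomeric matrix protein, had log2 fold changes of 0.16, 95% interval -0.10 to 0.42 and -0.077, 95% interval -0.23 to 0.077.

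*Adamts6* (chr13:104287835-104496695 on GRCm38, + strand) was one of 2 members whose groups did not overlap. It is related to *Adamts10*, and both have been tied to fibrillin fibres and cell adhesion. The normalised count of *Adamts6* was 551, 578, 551 and 585 in control replicates 1 to 4 and 432, 474, 477 and 425 in TGFβ1FKO replicates 1 to 4. The lowest control value was above the highest TGFβ1FKO value, and the spread within each group was small. The mean was 566 ± 17.8 in control and 452 ± 27.4 in TGFβ1FKO fibroblasts (SD, n = 4 each), so TGFβ1FKO stood at 79.9% of control. The log2 fold change was -0.32, 95% interval -0.47 to -0.18, which lies inside 0.6, and the adjusted p was 0.155 with limma. With each library left out in turn it ran from -0.35 to -0.30. DESeq2's Wald test against 0 gave *Adamts6* an adjusted p of 0.0247, and over all alternatives the adjusted p ran from 0.0247 to 1. By that test, at any size of change, 1 of 51 members (1.96%) and 0.496% of all genes had an adjusted p under 0.05. The two-sided exact permutation p was 0.0286, the smallest that 4 libraries against 4 can give. Any gene whose groups do not overlap gets this value, *Adamts17* below included, so it only restates the lack of overlap.

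*Adamts17* (chr7:66839735-67153171, + strand), which has also been linked to fibrillin, had the lowest log2 fold change of the 51 members and very few reads. It had 15, 7, 5 and 7 reads in control replicates 1 to 4 and 2, 0, 5 and 3 in TGFβ1FKO replicates 1 to 4. Divided by the size factors these are 12.9, 7.44, 5.54 and 6.91 and 2.03, 0, 4.15 and 3.32 normalised counts, and on that scale the groups did not overlap, although in reads control replicate 3 and TGFβ1FKO replicate 3 had the same number. The means were 8.20 ± 3.24 in control and 2.38 ± 1.81 in TGFβ1FKO fibroblasts (SD, n = 4 each). The log2 fold change was -1.62, 95% interval -2.85 to -0.40 (adjusted p = 0.570, limma; two-sided exact permutation p = 0.0286), and it was -0.85 with a pseudocount of 5 and -1.93 with one of 0.5. In 3 of the 4 TGFβ1FKO libraries the reads were at or under the floor of 3. *Adamts16*, also rare, had 11, 13, 28 and 3 reads in control replicates 1 to 4 and 1, 7, 9 and 9 in TGFβ1FKO replicates 1 to 4, and control replicate 4 lay below 3 of the TGFβ1FKO libraries. Its log2 fold change was -0.92, 95% interval -2.35 to 0.51, and it was -0.37 without TGFβ1FKO replicate 1, -0.44 without control replicate 3 and -1.45 without control replicate 4. *Adamts10* was 656 to 985 in control and 569.7 to 825 in TGFβ1FKO libraries (log2 fold change -0.27, 95% interval -0.60 to 0.054).

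**Figure D5:**
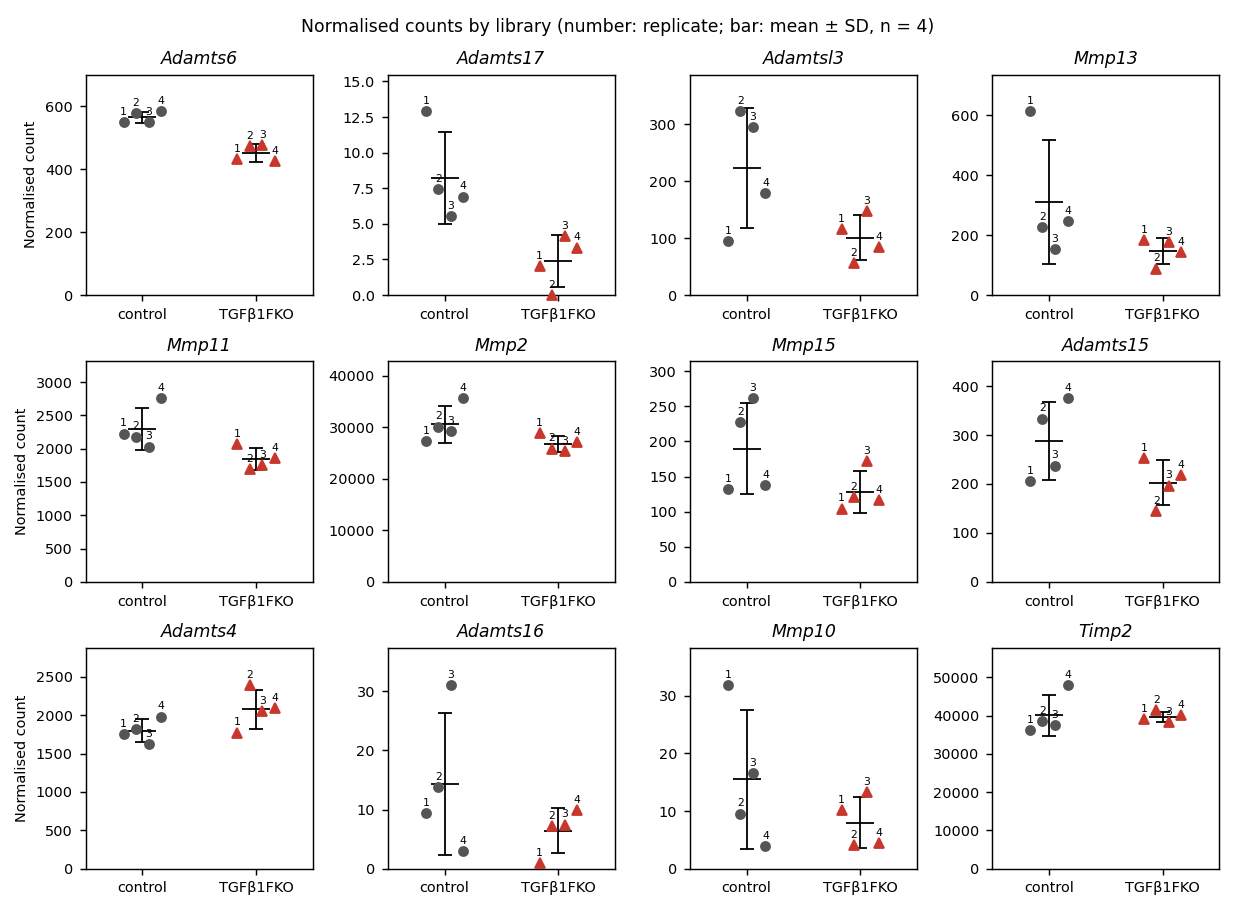
Normalised counts of 12 members in 4 control (grey circles) and 4 TGFβ1FKO (red triangles) libraries, with replicate numbers, and the mean and SD as bars; each axis starts at 0. Adamts6 and Adamts17 are the 2 genes whose groups do not overlap, and the high mean of control Mmp13 and Mmp10 goes with control replicate 1.

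The ADAMTS-like proteins share the non-catalytic domains of the ADAMTSs and bind matrix proteins such as fibrillin. *Adamtsl3* (chr7:82335694-82614450, + strand) was 94.6, 323, 295 and 179.7 in control replicates 1 to 4 and 116, 55.9, 147 and 84.2 in TGFβ1FKO replicates 1 to 4. Control replicates 2, 3 and 4 were above all TGFβ1FKO libraries, and control replicate 1 was below 2 of them. The mean was 223 ± 106 in control and 101 ± 39.3 in TGFβ1FKO fibroblasts (SD, n = 4 each), with a log2 fold change of -1.08, 95% interval -1.86 to -0.30 (adjusted p = 0.536, limma; two-sided exact permutation p = 0.0857). It ran from -1.44 to -0.83 with each library left out in turn. *Adamtsl5*, the highest per kb at 671 ± 72.0 in control and 633 ± 48.9 in TGFβ1FKO (SD, n = 4), had a log2 fold change of -0.081, 95% interval -0.25 to 0.089, and *Adamtsl4* one of -0.043, 95% interval -0.30 to 0.21. *Adamtsl2*, which binds a latent TGFβ binding protein, was 49.9 to 119 in control and 45.6 to 79.8 in TGFβ1FKO libraries (log2 fold change -0.29, 95% interval -0.88 to 0.31). *Adamtsl1* had a log2 fold change of 0.19, 95% interval -0.097 to 0.47. *Adamts16*, *Adamts17*, *Adamtsl3*, *Mmp10* and *Mmp13* were picked for display by the study from these same libraries for their low log2 fold changes, so their direction is not independent evidence, and none of the 5 passed the test here.

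The 3 measured inhibitors had intervals within 0.6 on either side. *Timp1* was 4626, 4596, 4903 and 3586 in control replicates 1 to 4 and 4236, 3778, 5008 and 4022 in TGFβ1FKO replicates 1 to 4. *Timp2*, which also takes part in the activation of *Mmp2* by *Mmp14*, was 36232, 38533, 37584 and 48005 in control replicates 1 to 4 and 39028, 41389, 38340.5 and 40078 in TGFβ1FKO replicates 1 to 4. *Timp3*, which stays bound to the matrix and also inhibits *Adam17* and *Adamts4*, was 13315, 18457, 13916 and 14181 in control replicates 1 to 4 and 14639, 12399.5, 17704 and 13394 in TGFβ1FKO replicates 1 to 4. In each gene the groups overlapped throughout, although control replicate 4 stood high for *Timp2* and control replicate 2 for *Timp3*. The log2 fold changes were -0.053, 95% interval -0.27 to 0.17 for *Timp1*, -0.0053, 95% interval -0.19 to 0.18 for *Timp2* and -0.043, 95% interval -0.29 to 0.21 for *Timp3*. All 3 log2 fold changes turned positive when certain single libraries were left out. *Timp3* lies within *Syn3*, which shares 21.3% of the exon length of *Timp3* on the opposite strand.

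Genes that act with these families were counted from written lists, and none was called. Of 6 measured activators (*Plat*, *Plau*, *Furin* and 3 related convertases) none had an unadjusted p under 0.05, with log2 fold changes from -0.24 to 0.089. The same held for 6 further inhibitors and clearance receptors, where *Reck*, the membrane inhibitor of Mmps, had a log2 fold change of 0.071 and *Lrp1*, which takes up Mmps and Timps, of 0.18. Among 9 partners of the proteases, *Tspan15*, a membrane partner of *Adam10*, was 68.8, 95.6, 111 and 37.5 in control replicates 1 to 4 and 34.5, 45.6, 44.0 and 36.6 in TGFβ1FKO replicates 1 to 4. The groups overlapped through control replicate 4, and the log2 fold change of *Tspan15* was -0.85 (adjusted p = 0.543, limma). *Tspan5*, another such partner, was higher without overlap, at 939 to 1042 in control and 1061 to 1078 in TGFβ1FKO libraries (log2 fold change 0.11, adjusted p = 0.683, limma). Of 5 measured metalloproteases outside the families, *Bmp1*, which removes the carboxy-terminal propeptide of procollagens, was 13774, 13431, 13965 and 13143 in control replicates 1 to 4 and 13121, 12546, 12355 and 12541 in TGFβ1FKO replicates 1 to 4. Every control value lay above every TGFβ1FKO value, and the log2 fold change was -0.10 (adjusted p = 0.671, limma). Of 10 substrates, *Vcan*, which encodes versican, was higher at an unadjusted p under 0.05, at 8152 to 10842 in control and 9888 to 10787 in TGFβ1FKO libraries (log2 fold change 0.17, adjusted p = 0.657, limma).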

How the data were processed

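RNA of cultured dermal fibroblasts was sequenced in 4 control and 4 TGFβ1FKO libraries, grouped by the genotype in the labels. The libraries were selected for poly-A RNA and did not keep the strand. Per the submitters' processing notes the tools were CASAVA 1.8, HISAT2 2.0.5, featureCounts 1.5.0-p3, R 4.3.2 and DESeq2 1.42.0, with the builds GRCm38 and mm10. The authors left out genes with few reads, divided counts by DESeq2 size factors and added 0.5, so the deposited signal is a normalised count per gene and library. The deposited columns of the authors' own test (mean, fold change, standard error, statistic and p-values) were not used.

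The 0.5 was subtracted. Values divided by the step of 1 read were whole in 100% of cases in each library (tolerance 0.01 reads), which gave back the reads. All 15111 genes were then fitted on the log2(normalised count + 1) scale in R 4.3.3 by limma 3.58.1, whose variance prior followed a trend over expression. A called gene had a Benjamini-Hochberg adjusted p under 0.05 and a log2 fold change above 0.6 in size. Alternatives were edgeR 4.0.16 (20 genes called), with and without TMM scaling, DESeq2 1.42.0 against 0 and against 0.6 on the recovered reads, limma with TMM scaling, pseudocounts of 0.5 and 5, at least 10 reads in every library, a block for the replicate number, and fits that left out 1 library at a time. For single genes a two-sided exact permutation test over the libraries was added; its smallest possible p is 0.0286. Before use, each test was tried on simulated counts with known changes.

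Coordinates and exon lengths came from the GENCODE M21 annotation of GRCm38 (15098 genes of the table matched) and start regions from RefSeq. The floor of 3 reads covers counting error only, since reads are not independent molecules. Within each group no library was a copy of another, since chi-square divided by its degrees of freedom was 5.14 or more. Pairs of libraries across the groups were not compared in this way. The members and lists were chosen with earlier results of these data known. Named are the members with the highest levels per kb in each family, the largest differences and the groups without overlap, all Timp genes, and the genes displayed by the study; members with an unadjusted p under 0.05 were added after the values were seen, and the others are given by fold change or range.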

Additional observations from a re-analysis of the deposited data

Results flagged for a closer look

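In 8 of 102 groups of 4 libraries, 1 library lay far from the other 3 by Dixon's ratio at its 95% critical value, where chance flags about 1 in 20 groups, or 5.1 of 102. In control replicate 1, *Mmp9* had a normalised count of 13.8 (the others 3.95 to 4.44), and *Mmp25* of 24.9 (the others 14.8 to 15.5). In control replicate 2, *Timp3* was at 18457 (the others 13315 to 14181), and in control replicate 4, *Adamts2* was at 28142 (the others 21912 to 22948). In TGFβ1FKO replicate 2, *Adam15* was at 3557 (the others 3220.3 to 3255), *Adamts14* at 507 (the others 429.8 to 439) and *Mmp28* at 409 (the others 299 to 310.2). In TGFβ1FKO replicate 3, *Mmp14* was at 33120.0 (the others 37522 to 37913), the one value that lay below the others of its group. Control replicate 4 was the highest control library for 20 of the 51 members and control replicate 1 the lowest for 21. How often this held over all genes was not counted, so it is not read as a trait of these families.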

How the results depend on the processing

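No member was called under any of the 17 alternatives to the test, scaling, pseudocount, read filter and libraries. The number of genes called over the whole table, 13, was 20 with edgeR, 22 with edgeR and TMM scaling, 56 with DESeq2 against 0 and the 0.6 threshold, and 3 with at least 10 reads in every library, a filter that left 12946 genes and 46 members. With the replicate number as a block it was 31. Leaving out single libraries gave 5 to 32, with 32 without control replicate 4 and 5 to 7 without control replicate 1, 2 or 3 or TGFβ1FKO replicate 2 or 4; the cause was not tested. Members without overlap of the groups numbered 1 under the read filter, which removed *Adamts17*, and 2 to 6 with a library left out (6 without control replicate 1 or TGFβ1FKO replicate 1, 4 without control replicate 3), since fewer libraries overlap less often. The count of 9 members at an unadjusted p under 0.05, chosen after seeing the data, was 0 with DESeq2 against 0.6, which tests another size of change, 11 with the replicate block and 6 to 11 with each library left out. The number of members with an interval within 0.6, which was 34, was 32 to 35 with a library left out. For members without overlap, at an unadjusted p under 0.05 or with an interval within 0.6, the share over all genes was not counted under these alternatives. How those counts moved is thus not read as a result about the members.

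Of 27 named members, 18 kept their direction under every alternative run for them; the read filter removed *Adamts16*, *Adamts17* and *Mmp10*, so it gave them no value. The other 9 had fold changes close to 0 and changed sign when single libraries were left out, with ranges of -0.0070 to 0.063 for *Adam10*, -0.042 to 0.020 for *Adam15*, -0.062 to 0.058 for *Adamts2*, -0.11 to 0.074 for *Adamtsl4*, -0.072 to 0.026 for *Mmp14*, -0.066 to 0.026 for *Mmp23*, -0.15 to 0.0017 for *Timp1*, -0.051 to 0.084 for *Timp2* and -0.14 to 0.062 for *Timp3*. TMM scaling moved the median fold change of all genes by -0.0052. Same-numbered control and TGFβ1FKO libraries correlated at 0.071, -0.045, 0.021 and 0.083 in their deviations from the group means, so the numbers were not taken to pair the samples, and the block changed no member's call. Dividing by coding length, a choice added after seeing the data, gave the same 10 highest members per kb in another order, with *Timp3* second in place of *Mmp2*, and moved the mean ratio of the Timp to the Mmp sum in control libraries from 0.912 to 2.12. Levels by protein length from a reference table were not run. The 9 members with a mean count under 50 have both few reads and a wide spread between libraries, and no interval of theirs lies within 0.6.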
